A study of Homo sapiens with 19 samples.

Results

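Expressions of 10 genes that are read as markers or drivers of the epithelial to mesenchymal transition were followed through the first 72 h of brown adipocyte (BA) induction in KhES-3, an established line of human embryonic stem cells (hESCs). The genes were CDH1, CDH2, EPCAM, VIM, FN1, SNAI1, SNAI2, TWIST1, ZEB1 and ZEB2, chosen by name from the field's usual list and not by a cut on their values, and they are 10 of the 20503 named genes on the array. Each of the 19 time points had 1 one-colour Agilent array of total RNA labelled with Cy3, so there were no replicates, and neither cells from before induction nor uninduced cells are among the samples analysed here. Per the labels, all cells received the same serum-free medium in low-attachment dishes, with IGF-II, BMP4, VEGFA, KITLG, FLT3LG and IL-6. The labels place the undifferentiated line on irradiated mouse embryonic fibroblasts, whereas the methods describe feeder-free maintenance. The arrays lay on 3 slides, with 3, 4, 6, 8, 10 and 12 h on the first (6 arrays), with 14, 16, 20, 24, 28, 32, 36 and 42 h on the second (8 arrays), and with 48, 54, 60, 66 and 72 h on the third (5 arrays), so slide and time cannot be fully told apart.

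The share of probes well above background was 49.6 to 64.7% per array (median 61.0%) and was lowest at 14, 16 and 72 h (49.6, 52.0 and 53.8%). Markers of hESCs were present throughout: 14 of 15 listed genes had a named probe, and all 14 were well above background on every array. Their summed signal was 1071573 to 1085744 at 3 to 6 h and 862294 to 882826 at 60 to 72 h. Of the 14, 1 rose and 6 fell, where 24.6% of all genes tested rose and 29.8% fell. With the slide as a block only the falls of LIN28B and DNMT3B held (limma adjusted p = 0.0231 and 0.0242). Of 12 fibroblast markers, 4 were well above background on all arrays, 6 on fewer than 5, and among these FAP and PRRX1 on none. The summed fibroblast signal was 41033 to 44206 at 3 to 6 h and 31995 to 49230 at 60 to 72 h. Of the fibroblast markers 2 rose and 1 fell, none of them with the slide as a block, and all 12 genes also stand in the lists described here. The other marker lists gave 4 of 9 genes that rose and 0 that fell for mesoderm and primitive streak, 2 and 1 of 4 for endothelium, 1 and 0 of 4 for blood, 2 and 1 of 8 for amnion and trophoblast, and 2 and 2 of 6 for neural crest and neuroectoderm, where 24.6% of all genes tested rose and 29.8% fell. Of the calls in these other lists, only the fall of TEK, an endothelial receptor gene, held with the slide as a block (limma adjusted p = 0.000696).

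Epithelial cells are held together by E-cadherin, the product of CDH1, and by tight junctions and desmosomes. In the transition, cells lose these contacts, replace E-cadherin with N-cadherin (CDH2), build vimentin filaments (VIM) and lay down fibronectin (FN1). The Snail, ZEB and TWIST transcription factors drive the change and bind E-box sequences, through which Snail and ZEB proteins repress CDH1. Undifferentiated hESCs are epithelial cells rich in E-cadherin and EpCAM, and they pass through such a transition when they form mesoderm by way of a primitive streak.

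The promoters of FN1 and CDH2 are shown because these are the genes past the threshold of the main test that have an entry in the RefSeq promoter table. Each window runs 5′ to 3′ from 250 bases before to 50 bases after an annotated start on the minus strand of GRCh38.p14, chr2:215436019-215436318 for FN1 and chr18:28177081-28177380 for CDH2. Another annotated start of CDH2, with its window at chr18:28036592-28036891, is not shown. Capitals mark the cyclic AMP response element TGACGTCA, a motif known from the FN1 promoter that reads the same on both strands.
FN1: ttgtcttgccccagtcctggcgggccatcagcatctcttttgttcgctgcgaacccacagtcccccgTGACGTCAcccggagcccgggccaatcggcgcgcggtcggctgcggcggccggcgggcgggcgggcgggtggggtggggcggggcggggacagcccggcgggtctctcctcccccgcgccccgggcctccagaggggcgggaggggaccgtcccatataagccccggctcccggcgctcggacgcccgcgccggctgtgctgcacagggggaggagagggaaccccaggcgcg
CDH2: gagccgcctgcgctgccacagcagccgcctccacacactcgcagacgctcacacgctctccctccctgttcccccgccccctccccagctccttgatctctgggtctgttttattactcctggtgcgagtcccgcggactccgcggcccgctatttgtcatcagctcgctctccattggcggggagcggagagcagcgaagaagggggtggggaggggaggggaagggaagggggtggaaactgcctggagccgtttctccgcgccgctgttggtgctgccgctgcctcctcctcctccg
The FN1 window held 1 such element, at position -183 from the start, and 1.85% of the 35116 promoter windows of the table held it. Because this motif was already known from the FN1 promoter, its presence there is a description and no test. The E-box bound by the Snail and ZEB factors, searched as CAGGTG and its reverse complement CACCTG, was in neither window shown, against 20.6% of all windows. Of the 10 genes, 5 had entries, with 12 windows in all. The E-box was found in 2 of these 12, both of ZEB1, and no match of one motif overlapped a match of the other.

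Signals below are processed intensities scaled so that the 75th percentile of each array is 871, and a change is the average log2 signal of the 3 latest arrays (60, 66 and 72 h) less the average of the 3 earliest (3, 4 and 6 h). The test was a straight line of log2 signal on hours, fitted with limma over the probes that at least 5 arrays measured well above background, with an adjusted p under 0.05 as the threshold. Of the 10 genes, 9 could be tested. FN1 and TWIST1 rose, CDH2 fell, and CDH1, EPCAM, VIM, SNAI1, SNAI2 and ZEB1 did not pass the threshold. In the same fit 24.6% of the 16694 genes tested rose and 29.8% fell, so 2 and 1 calls among 9 genes did not exceed the background. With the slide as a block, 4.12% of all genes rose and 5.97% fell, and of the 9 genes 1 rose (FN1) and 0 fell. Unadjusted limma values under 0.05 in that fit were found for 3 genes with positive slopes (TWIST1 and ZEB1 as well) and for 0 with negative ones. The median change of all genes tested was -0.05 on the log2 scale, but it was -0.42 when arrays were scaled by their median and -0.69 when they were scaled by spike-in controls, so small changes are to be read against that shift.

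**Figure D1:**
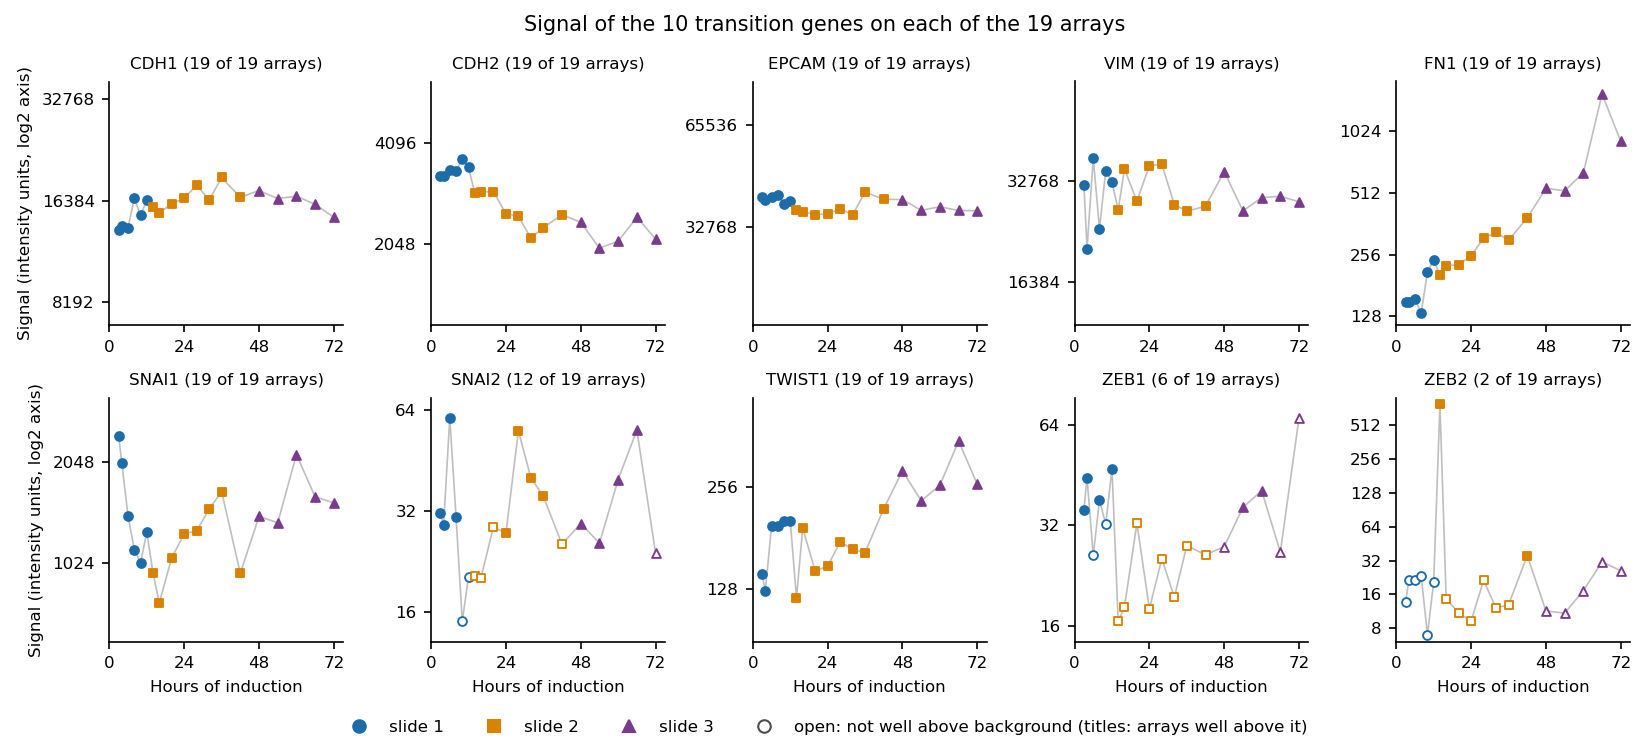
Signal of each gene on each of the 19 arrays (y axis, intensity units on a log2 scale with its own range per gene; x axis, hours of induction), with the slide as colour and shape and open symbols where the probe was not well above background. FN1 climbs from 132.7 to 1552.6, CDH2 steps down after 12 h, SNAI1 dips to 780.3 at 16 h, and SNAI2, ZEB1 and ZEB2 lie mostly near background.

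FN1, which encodes the matrix glycoprotein fibronectin, showed the largest change of the 9 genes tested. Its signal was 149.7, 149.9, 155.0, 132.7, 211.0 and 240.9 on the first slide, from 3 to 12 h. It was 203.8, 226.0, 228.4, 252.3, 307.9, 327.8, 300.5 and 386.3 on the second slide, from 14 to 42 h. It was 538.1, 523.6, 640.9, 1552.6 and 910.5 on the third, from 48 to 72 h. Every array of the third slide lay above every earlier array, while the first and second slides overlapped. The mean went from 151.5 to 967.6, a change of 2.68 on the log2 scale or 6.39-fold, and the slope was 0.0412 log2 per hour (SE 0.00286, limma adjusted p = 2.5e-09). Without the 66 h array, which was the highest, the change was 2.33 on the log2 scale. In bulk RNA such as this, a change in the share of cells that express a gene and a change in its RNA per cell cannot be told apart. Blocked by slide, the slope was 0.0400 log2 per hour (SE 0.00831, limma adjusted p = 0.00863).

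Within single slides, the rise of FN1 passed the threshold on the second slide, where the slope was 0.0308 log2 per hour (SE 0.00453, limma adjusted p = 0.0179) and where 7.34% of all genes were called in either direction. On the first slide the slope was 0.0741 (limma adjusted p = 0.165, with 5.13% of genes called) and on the third it was 0.0514 (limma adjusted p = 0.186, with 1.05% called). All 3 slopes were positive, and the test of a difference between them did not pass the threshold for FN1 (limma adjusted p = 0.482), while 25.5% of all genes passed it. The array has 1 named probe for FN1, assigned to transcript NM_054034, and RefSeq lists 18 transcripts of this gene. Which of the others the probe detects is not given in the sources used here.

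TWIST1, a transcription factor of early mesoderm and neural crest that activates mesenchymal genes, rose by less. Its signal ran from 125.8 at 4 h to 203.9 at 12 h on the first slide, with a median of 196.8. On the second slide it ran from 120.3 at 14 h to 221.6 at 42 h, with a median of 165.8. On the third it ran from 233.6 at 54 h to 351.2 at 66 h, with a median of 261.5. The third slide lay above all earlier arrays, and the first and second slides overlapped. The mean went from 152.0 to 287.9, a change of 0.92 on the log2 scale or 1.89-fold (slope 0.0137 log2 per hour, SE 0.00296, limma adjusted p = 0.000741).

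The call for TWIST1 was lost under another scaling and with the slide. The slope was 0.0085 log2 per hour with median scaling (limma adjusted p = 0.054), 0.0053 with spike-in scaling (limma adjusted p = 0.306) and 0.0163 with the slide as a block (SE 0.0071, limma adjusted p = 0.156). A dimmer probe of TWIST1 was well above background on no array up to 24 h, where its highest signal was 30.9. It was well above background on 7 later arrays, with a highest signal of 109.3 at 28 h. A straight line gave this probe a slope of 0.0360 log2 per hour (SE 0.00702, limma adjusted p = 0.000299, and 0.367 with the slide as a block). The probe passed the filter only through those later arrays, so its slope is no separate support for a rise. Its mean signal was 12.5 at 3 to 6 h and 66.1 at 60 to 72 h, where 2 of 3 arrays measured it well above background. Because no early array measured the dimmer probe well above background, the size of its change cannot be given. With the mean of both probes the change of TWIST1 was 1.66 on the log2 scale in place of 0.92, but this mean holds the early readings of the dimmer probe.

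The signals of the cadherin genes moved apart, and it was CDH2, the N-cadherin gene, that fell. The signal of CDH2 was 3269.1, 3260.7, 3399.2, 3375.8, 3673.7 and 3465.3 from 3 to 12 h. It was 2907.2, 2931.0, 2934.1, 2524.3, 2481.8, 2138.1, 2296.8 and 2507.4 from 14 to 42 h. It was 2382.5, 1994.9, 2093.8, 2462.5 and 2124.4 from 48 to 72 h. On the brighter probe of CDH2, which gave these values, all arrays of the first slide lay above all later arrays, and the later slides overlapped. The mean went from 3309.1 to 2220.8, a change of -0.58 on the log2 scale or 1.49-fold lower (slope -0.0109 log2 per hour, SE 0.00171, limma adjusted p = 3.27e-05). A second, dimmer probe of CDH2 also fell, from 773.9 to 549.9 (slope -0.0092 log2 per hour, SE 0.00217, limma adjusted p = 0.00153). It lost its call with the slide as a block (slope -0.0057 log2 per hour, limma adjusted p = 0.574). On this dimmer probe the first slide overlapped the later ones, with 680.1 at 8 h and 736.7 at 16 h.

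The fall of CDH2 kept its direction but lost its call with the slide as a block (slope -0.0076 log2 per hour, SE 0.00401, limma adjusted p = 0.249). Within the second slide alone the slope was -0.0133 log2 per hour (limma adjusted p = 0.14). On the first slide it was 0.0143 and on the third -0.0005, with limma adjusted p = 0.414 and 0.978. The step from 3465.3 at 12 h to 2907.2 at 14 h, which parted the early arrays from the later ones, coincided with the change from the first to the second slide, and what the slide contributed cannot be told apart from the time. That step was -0.25 on the log2 scale, and steps within slides ran from -0.26 (48 to 54 h) to 0.23 (60 to 66 h).

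For CDH1, which encodes E-cadherin, the cadherin of epithelial junctions, the arrays from 60 to 72 h lay above those from 3 to 6 h on the 75th percentile scale. Its signal was 13439.3, 13752.2, 13599.6, 16667.4, 14812.3 and 16409.1 from 3 to 12 h. It was 15699.9, 15043.5, 16027.8, 16618.6, 18224.6, 16409.6, 19177.4 and 16744.1 from 14 to 42 h, and 17539.9, 16607.7, 16878.9, 15968.7 and 14606.3 from 48 to 72 h. The 3 earliest arrays were the lowest of all 19, the 36 h array was the highest, and the whole range was 1.43-fold. The 10 spots of the CDH1 probe on each array had a coefficient of variation of 1.74 to 5.56% (median 4.49%, 7 to 10 spots used), which is technical error within an array.

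The straight line for CDH1 did not pass the threshold (change 0.22 on the log2 scale or 1.16-fold, slope 0.0025 log2 per hour, SE 0.00155, limma adjusted p = 0.181). Without the 72 h array the slope was 0.0040 (limma adjusted p = 0.0449). CDH1 also passed as rising with normexp background correction and quantile normalization (slope 0.0069, limma adjusted p = 0.00172), on the arrays from 3 to 54 h alone (slope 0.0064, limma adjusted p = 0.0138) and on a line in log2 hours (limma adjusted p = 0.0218). Its direction turned with other scalings, to -0.0028 with median scaling and -0.0060 with spike-in scaling, neither of them past the threshold (limma adjusted p = 0.193 and 0.265). A cubic curve in hours, which can rise and fall, passed it for CDH1 both without the slide (limma F test, adjusted p = 0.00193) and with it as a block (adjusted p = 0.0337). The slopes within the slides were 0.0316, 0.0075 and -0.0097 log2 per hour from the first to the third, and they differed between slides (limma F test, adjusted p = 0.0463).

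The difference between the cadherin probes within an array does not depend on the scaling between arrays. From the 3 h array, the log2 of CDH2 minus that of CDH1 ranged from -0.26 to 0.04 on the first slide, from -1.02 to -0.32 on the second and from -1.02 to -0.66 on the third. The arrays from 14 h on thus all lay below the arrays up to 12 h, with CDH2 read by its brighter probe only. From the early to the late arrays the ratio of CDH2 to CDH1 signal went down by 1.73-fold, a change of -0.79 on the log2 scale. The slope of this difference was -0.0134 log2 per hour, or -0.0108 with the slide as a block, given here as sizes without a test.

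**Figure D2:**
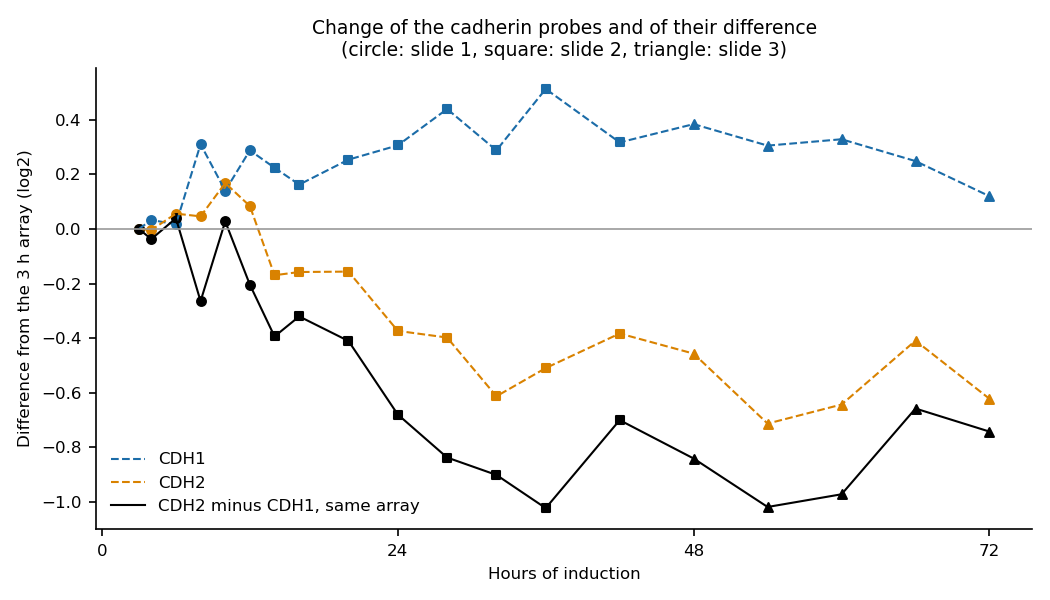
Log2 difference from the 3 h array (y axis) against hours of induction (x axis) for CDH1, for CDH2 and for CDH2 minus CDH1 on the same array, 1 point per array with the slide as symbol shape. With the 75th percentile scaling CDH1 stays above its 3 h value after 3 h, CDH2 lies below its own from 14 h on, and their difference reaches -1.02 at 36 h and at 54 h.

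EPCAM, which encodes an adhesion molecule of epithelial and hESC surfaces, had the narrowest range of the 10 genes. Its lowest signal was 35578.3 at 32 h, its median 37609.3 and its highest 41540.2 at 36 h, a range of 1.17-fold. The mean went from 39948.1 to 36947.3, a change of -0.11 on the log2 scale (slope -0.0011 log2 per hour, SE 0.00109, limma adjusted p = 0.431). EPCAM passed the threshold as falling with median scaling (slope -0.0063, limma adjusted p = 0.00822) and with spike-in scaling (slope -0.0095, limma adjusted p = 0.0317), and its slope turned positive with the slide as a block (0.0019, limma adjusted p = 0.703).

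VIM, the intermediate filament gene of mesenchymal cells, was well above background on all 19 arrays and did not pass the threshold in either direction. Its mean was 29276.0 at 3 to 6 h and 29026.5 at 60 to 72 h, a change of -0.01 on the log2 scale (slope -0.0007 log2 per hour, SE 0.00255, limma adjusted p = 0.832). Its lowest value of 20629.2 at 4 h and its highest of 38180.2 at 6 h stood on neighbouring arrays of the first slide. From 14 h on it ran from 26608.9 at 36 h to 36684.3 at 28 h. The scatter of the arrays about the line was 0.241 on the log2 scale for VIM against 0.0703 for EPCAM, and no shape of the cubic curve passed the threshold for either gene (limma F test, adjusted p = 0.721 for VIM and 0.199 for EPCAM).

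**Figure D3:**
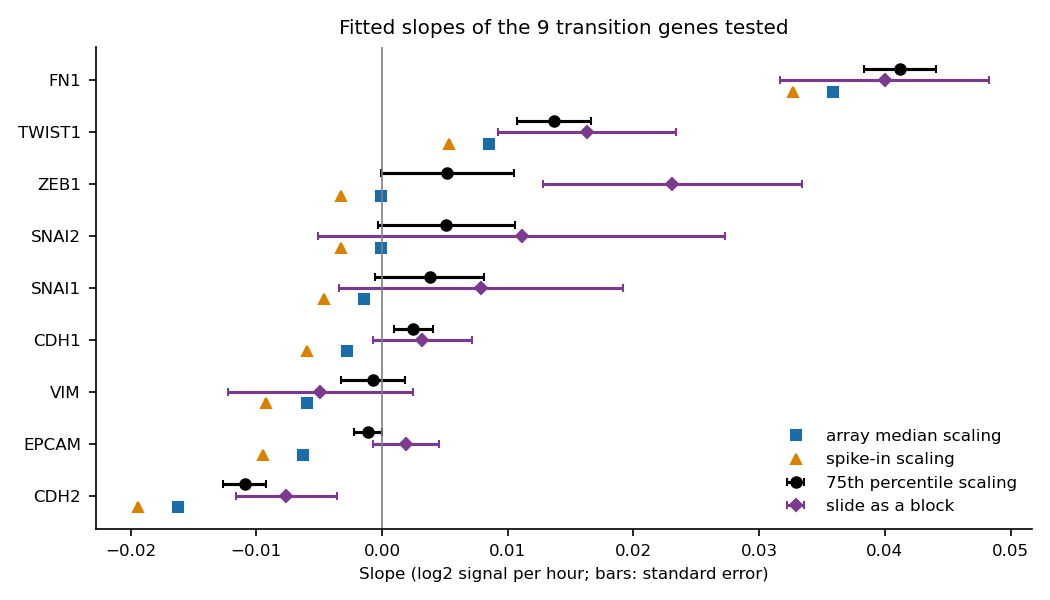
Slope of log2 signal on hours (x axis, log2 per hour) for the 9 genes tested (y axis), with the standard error for the 75th percentile scaling (circles) and for the same fit with the slide as a block (diamonds), and the slope alone with median scaling (squares) and spike-in scaling (triangles). FN1 lies at 0.0412 and apart from 0 in each of these fits, CDH2 lies below 0 in each, and the slopes of CDH1, EPCAM, SNAI1, SNAI2 and ZEB1 lie on both sides of 0.

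SNAI1, the Snail factor that represses CDH1, was high at 3 and 4 h and lowest at 16 h. It climbed to 1671.3 at 36 h, dipped to 957.0 at 42 h and was higher again from 48 h on. Its signal was 2440.4, 2024.3, 1413.1, 1123.9, 1024.1 and 1267.0 from 3 to 12 h. It was 959.5, 780.3, 1062.8, 1251.7, 1278.6, 1481.7, 1671.3 and 957.0 from 14 to 42 h, and 1410.4, 1350.3, 2151.0, 1611.6 and 1546.4 from 48 to 72 h. The highest array was the earliest one, and the range was 3.13-fold, wider than that of CDH1, CDH2, EPCAM or VIM. A straight line did not pass the threshold (slope 0.0038 log2 per hour, SE 0.00434, limma adjusted p = 0.475), and the early and late means were 1911.2 and 1750.2.

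The cubic curve passed the threshold for SNAI1 (limma F test, adjusted p = 0.0196) but not once the slide was a block (adjusted p = 0.209). On the first slide, where the signal went from 2440.4 at 3 h to 1024.1 at 10 h, the slope was -0.1197 log2 per hour (SE 0.0325, unadjusted p = 0.0111, limma adjusted p = 0.0973). The slopes were 0.0189 log2 per hour on the second slide and 0.0087 on the third, and the test of a difference between slides gave limma adjusted p = 0.0521.

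The other Snail and ZEB factors were at or near the detection limit. SNAI2, the Slug factor, was well above background on 12 of 19 arrays, with a median signal of 29.0, a highest of 60.4 at 6 h and a range of 4.03-fold (slope 0.0051 log2 per hour, SE 0.00545, limma adjusted p = 0.444). ZEB1, a zinc finger repressor of CDH1, was well above background on 6 of 19 arrays, at 3, 4, 8, 12, 54 and 60 h, and its signal ran from 16.5 at 14 h to 67.1 at 72 h. None of the 8 arrays of the second slide measured ZEB1 well above background, and a second probe was well above background on 1 array. Its straight line did not pass the threshold (limma adjusted p = 0.428), whereas the cubic curve did (adjusted p = 0.0248, and 0.26 with the slide as a block).

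ZEB2, the other ZEB factor, was well above background on 2 of 19 arrays and was not tested. Of its 3 probes, 2 were well above background on none. The brightest reading, 785.2 at 14 h, came from 1 spot of 1 probe, while the other probes read 15.9 and 14.8 on that array. All other readings of that probe lay between 7.0 and 35.5. The lowest signal well above background was itself 19.7 to 73.5 per array and was highest at 14 h.

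Over all shapes, the cubic curve passed the threshold for 6 of the 9 genes tested (CDH1, CDH2, FN1, SNAI1, TWIST1 and ZEB1), where 79.6% of all genes passed it. With the slide as a block it passed for 2, CDH1 and FN1, where 36.1% of all genes passed it. Neither count exceeded the background. The difference in slope between slides passed the threshold for 1 of the 9, CDH1, where 25.5% of all genes passed it.

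The wider epithelial programme was followed with a list of 54 genes of junctions, keratins and their regulators. Of the 52 tested, 10 rose (19.2%), 17 fell (32.7%) and 25 did not pass the threshold, shares near the 24.6% and 29.8% of all genes, with a median change of -0.15 on the log2 scale against -0.05 for all genes tested. The split depended on the scaling. It was 2 up and 29 down for median scaling, where 10.6% of all genes rose and 44.5% fell, and 1 up and 29 down for spike-in scaling, where 3.59% rose and 44.5% fell. With normexp it was 18 up and 17 down, where 22.4% of all genes rose and 26.2% fell. With the slide as a block, 3 rose and 6 fell, where 4.12% and 5.97% of all genes did. The 5 steepest rises were those of RAB25, MUC1, ELF3, MARVELD2 and PRSS8, and the 5 steepest falls those of ESRP1, CLDN10, ERBB3, TJP1 and CGN.

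RAB25, a GTPase of apical membrane recycling, rose from 1587.7 to 3474.0, or 2.19-fold (slope 0.0198 log2 per hour, SE 0.00177, limma adjusted p = 4.78e-08). The mucin gene MUC1 rose from 440.3 to 951.2 and the epithelial transcription factor gene ELF3 from 2250.0 to 4282.7, by 2.16-fold and 1.9-fold. MARVELD2, which encodes the tight junction protein tricellulin, rose by 1.53-fold and the membrane protease gene PRSS8 by 1.5-fold. In the other direction, ESRP1, the regulator of epithelial splice forms, fell from 2954.7 to 1345.5, which was 2.2-fold lower (slope -0.0184 log2 per hour, SE 0.00186, limma adjusted p = 1.97e-07). The claudin gene CLDN10 was 1.98-fold lower, the receptor gene ERBB3 2.07-fold, and the tight junction scaffold genes TJP1 and CGN 1.53-fold and 1.67-fold.

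By families, picked after their values were seen, 1 of the 6 claudins on the list rose and 3 fell, and 3 of the 4 keratins rose and 0 fell. Of all genes, 24.6% rose and 29.8% fell. None of these keratin calls held with the slide as a block, and 1 claudin call did, where 4.12% of all genes rose and 5.97% fell. With median and with spike-in scaling 0 keratins rose and 5 claudins fell. In those 2 fits 10.6% and 3.59% of all genes rose, and 44.5% fell in each. Of the 10 genes named here, RAB25, MARVELD2 and PRSS8 held as rising and ERBB3, TJP1 and CGN as falling with the slide as a block. The 5 falls passed the threshold under each scaling tried, whereas of the 5 rises only those of RAB25 and MUC1 passed it with median scaling and only that of RAB25 with spike-in scaling.

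Of 50 mesenchymal genes, including CDH2, VIM and FN1, 42 were tested, of which 8 rose (19.0%), 17 fell (40.5%) and 17 did not pass the threshold, against 24.6% and 29.8% of all genes. The median change was -0.15 on the log2 scale. The counts were 2 up and 21 down with median scaling, where 10.6% of all genes rose and 44.5% fell. With spike-in scaling they were 1 up and 23 down, where 3.59% of all genes rose and 44.5% fell. With the slide as a block they were 4 up and 6 down, where 4.12% and 5.97% of all genes did. The 5 steepest rises were those of FN1, FSTL1, COL6A2, SPARC and ITGB1, and the 5 steepest falls those of TAGLN, CD44, CALD1, CNN1 and ACTA2. FSTL1, a secreted glycoprotein gene, rose from 31592.4 to 64743.0, or 2.05-fold (slope 0.0182 log2 per hour, SE 0.00142, limma adjusted p = 1e-08). The matrix genes COL6A2 and SPARC rose by 1.46-fold and 1.61-fold, and ITGB1, the beta subunit of fibronectin receptors, by 1.29-fold. With the slide as a block the rises of FN1, FSTL1 and ITGB1 held, and those of COL6A2 and SPARC did not (limma adjusted p = 0.115 and 0.319). Of these 5, only FN1 and FSTL1 passed the threshold with median scaling and only FN1 with spike-in scaling, where the slope of ITGB1 turned to -0.0011 log2 per hour.

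The steepest falls were mostly of actin cytoskeleton genes, which smooth muscle and stress fibres use. TAGLN (transgelin) went from 11735.4 to 4183.4, or 2.81-fold lower (slope -0.0265 log2 per hour, SE 0.00171, limma adjusted p = 1.13e-09). The caldesmon gene CALD1 was 2.31-fold lower, the calponin gene CNN1 2.13-fold and the smooth muscle actin gene ACTA2 2.16-fold, and the hyaluronan receptor gene CD44 2.58-fold. With the slide as a block the falls of TAGLN, CALD1 and ACTA2 held, and those of CD44 and CNN1 did not (limma adjusted p = 0.116 and 0.45). The 7 contractile genes on the list were a group picked after their values were seen. All 7 fell, by 0.46 to 1.49 on the log2 scale, and 6 of them also fell with the slide as a block. Of all genes, 29.8% fell in the main fit and 5.97% with the block. The count was 7 with median, spike-in and deposited scaling and 6 with normexp. Of all genes, 44.5% fell with median scaling, 44.5% with spike-in scaling and 26.2% with normexp. Because the group was picked from these values, the counts are no test of it. Among the 6 collagen genes tested, picked in the same way, 2 rose and 1 fell, where 24.6% of all genes rose and 29.8% fell. With median scaling 0 collagen genes rose and 3 fell, where 10.6% of all genes rose and 44.5% fell.

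**Figure D4:**
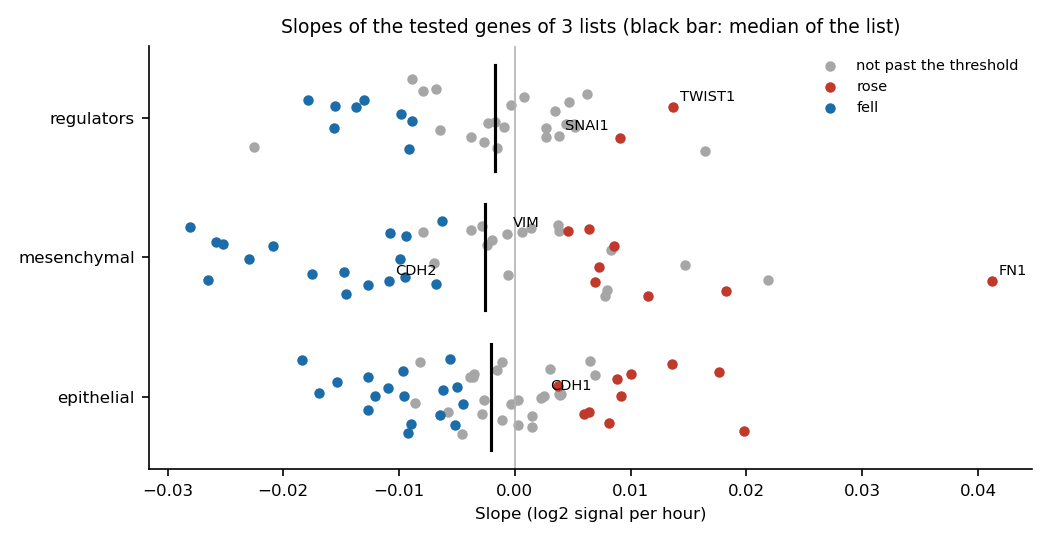
Slope of log2 signal on hours (x axis, log2 per hour) for the 52 epithelial, 42 mesenchymal and 33 regulator genes tested (y axis, spread at random within each list for legibility), 1 point per gene, red where it rose, blue where it fell and grey where it did not pass the threshold, with the list's median as a black bar. FN1 at 0.0412 stands alone on the right, and the 3 medians lie between -0.0026 and -0.0017.

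Of 40 regulators of the transition, including the Snail, ZEB and TWIST genes, 33 were tested, of which 2 rose (TWIST1 and SOX4), 8 fell and 23 did not pass the threshold, with a median change of -0.13 on the log2 scale. These shares, 6.06% and 24.2%, were below the 24.6% and 29.8% of all genes. With the slide as a block 0 rose and 1 fell, where 4.12% of all genes rose and 5.97% fell. With median scaling 0 rose and 15 fell, where 10.6% of all genes rose and 44.5% fell. With spike-in scaling 0 rose and 14 fell, where 3.59% of all genes rose and 44.5% fell. SOX4, a transcription factor gene of progenitor cells, rose from 1522.4 to 1886.5, or 1.24-fold (limma adjusted p = 0.00503). The 5 steepest falls were those of TGFBR1, SMAD3, TCF4, FOXQ1 and TCF3.

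TGFBR1, the type I receptor for TGF-beta, which induces the transition in many epithelia, went from 224.5 to 102.7, or 2.19-fold lower (slope -0.0179 log2 per hour, SE 0.00234, limma adjusted p = 4.21e-06). It was the regulator whose fall held with the slide as a block (limma adjusted p = 0.00942). SMAD3, which carries that receptor's signal to the nucleus, was 2.23-fold lower and the forkhead gene FOXQ1 1.71-fold. TCF4 and TCF3, E-proteins that pair with TWIST factors, were 1.81-fold and 1.68-fold lower. These 5 falls passed the threshold under each scaling tried, and the rise of SOX4 did not with median or spike-in scaling (limma adjusted p = 0.318 and 0.93).

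The genes whose log2 signal ran most like each of the 7 genes well above background on all 19 arrays were found by Pearson's r over the 19 arrays, among 13968 other genes, as a description of arrays that share slides and a time course. For FN1 they were HLA-DQB1, SLIT3 and SAT1 (r = 0.979, 0.975 and 0.965). For CDH2 they were MTHFS, ARPC2 and YJU2 (r = 0.957, 0.956 and 0.956), all lower late than early. For SNAI1 they were EGR2, MAFF and ZSCAN12 (r = 0.909, 0.906 and 0.898), of which the transcription factor genes EGR2 and MAFF belong to the early growth response and small MAF families.

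For CDH1 the closest genes were S100A10, SHTN1 and TLCD4 (r = 0.899, 0.897 and 0.89), and for TWIST1 S100A16, CFP and PAFAH2 (r = 0.864, 0.862 and 0.852). EPCAM and VIM had the weakest likeness to any gene, with NELL2, PROSER1 and GSPT1 for EPCAM (r = 0.847, 0.834 and 0.806) and SMAD5, CEP350 and CCDC181 for VIM (r = 0.763, 0.757 and 0.735). None of these 21 genes was on the 3 lists described above.

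Cells that leave the hESC state for mesoderm by way of the primitive streak undergo this transition, so the mesoderm markers stand beside it. The summed signal of the 9 mesoderm and primitive streak genes was 2700 to 3688 at 3 to 6 h and 6649 to 8519 at 60 to 72 h, most of it from KDR, since the early and late means of the other 8 genes were at most 360.3 each. KDR, the VEGF receptor gene of mesoderm, rose from 2363.6 to 5969.1 and MESP1, a transcription factor gene of nascent mesoderm, from 103.6 to 360.3 (limma adjusted p = 1.03e-05 and 2.23e-05, and 0.217 and 0.0712 with the slide as a block). The primitive streak genes TBXT, MIXL1, EOMES and GSC did not pass the threshold (limma adjusted p = 0.756, 0.292, 0.684 and 0.212). The part of such cells in the rise of FN1 and TWIST1 was not tested.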

How the data were processed

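Per the labels, total RNA of KhES-3 cells was hybridised to 19 one-colour Agilent arrays, 1 per time point, and the authors deposited the output of Agilent Feature Extraction 10.10.1.1, in which each spot has a background-corrected intensity that is not scaled between arrays. Other deposited columns used are flags of 0 or 1 (well above background, outlier) and the raw median intensity of spot and background. A table of intensities, also deposited by the authors, was found to equal the processed intensity times 1 factor per array (0.9051 to 1.3777) and blank where a spot was not well above background. The rule behind the factors is not given in the sources used here.

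Of 62976 spots, 61657 were not controls, and 0.63% of these were left out as outliers. No spot was saturated. Spots of a probe were averaged (50683 probes), and log2 intensity minus the array's 75th percentile was used. Probes were named through RefSeq accessions (GRCh38.p14): 28174 matched 20503 symbols. A gene was represented by its probe with the highest mean. Slopes came from limma 3.58.1 under R 4.3.3 over the 32113 probes that at least 5 arrays measured well above background, with Benjamini-Hochberg adjustment over all of them. The slide was added as a block, each slide was fitted alone, and a cubic curve and the interaction of slide and hours were tested by F tests. With 1 array per time point the error is the scatter about the fitted curve, with a precision limited by how many arrays there are. On simulated data for the slope on hours, 178 of 200 changed probes were recovered (89%) among 183 calls. All simulated slopes were steeper than those of CDH2 and TWIST1. The noise was independent, no slide effect was added and all other probes were flat. The 89% is therefore not the power for smaller slopes or for data with slide effects. Alternatives were array median and spike-in scaling (7 of 10 spike levels), normexp (offset 50, on median signals) with quantile normalization, the deposited table, other filters, log2 hours, 3 to 54 h alone, the mean of a gene's probes, and each array left out.

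The 10 genes and the epithelial, mesenchymal and regulator lists were chosen with earlier results of these data known. The text names the 10 genes, from each list the 5 steepest rises and 5 steepest falls past the threshold among genes well above background on all arrays, and the 3 genes most correlated with each of the 10 that was so. Tables and plots were made in Python 3.11.15 (pandas 2.3.3, numpy 2.4.6, matplotlib 3.10.9).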

Additional observations from a re-analysis of the deposited data

Results flagged for a closer look

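The slope of CDH1 on hours differed between the 3 slides (limma F test on the interaction of slide and hours, adjusted p = 0.0463), with 0.0316 log2 per hour at 3 to 12 h, 0.0075 at 14 to 42 h and -0.0097 at 48 to 72 h. None of the 3 slopes passed the threshold alone (limma adjusted p = 0.21, 0.305 and 0.342), and each slide holds its own time range, so slide and time cannot be told apart.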

How the results depend on the processing

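No paired analysis was possible because no time point was measured on more than 1 array. Each slide holds 1 time range, so a fit with the slide as a block removes part of the time course with it, and 5 to 8 arrays per slide leave little to test. Genes near background have signals close to the lowest that can be told from it.

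With median scaling, spike-in scaling and the slide as a block, in that order, 1, 1 and 1 of the 10 genes rose and 2, 2 and 0 fell. With normexp, with log2 hours and from 3 to 54 h, 3 rose (CDH1 as well) and 1 fell. The epithelial list had 2, 1 and 3 genes up and 29, 29 and 6 down, and 18 up with normexp. The mesenchymal list had 2, 1 and 4 up, and 6 down with the block. The regulator list had 0, 0 and 0 up and 15, 14 and 1 down. Of all genes, 10.6, 3.59 and 4.12% rose and 44.5, 44.5 and 5.97% fell in these 3 fits, and 22.4% rose with normexp. The cubic curve passed the threshold for 2 of the 9 genes with the block. The causes were not tested. Leaving out 1 array at a time gave 2 to 3 of the 10 genes up (3 without the 72 h array, with CDH1) and 1 down.

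FN1 kept its direction in all alternatives and lost its call only on the first slide alone and on the third alone, and TWIST1 kept its direction in all. The sign of the slope in log2 per hour turned in the following cases, none of them past the threshold. It turned with median scaling for CDH1 (-0.0028), SNAI1 (-0.0014), SNAI2 (-0.0001) and ZEB1 (-0.0001), and with spike-in scaling for CDH1 (-0.0060), SNAI1 (-0.0046), SNAI2 (-0.0033) and ZEB1 (-0.0033). With normexp it turned for EPCAM (0.0026), VIM (0.0043), SNAI2 (-0.0007) and ZEB1 (-0.0021), and with the deposited table for ZEB1 (-0.0026). On log2 hours (per doubling of time) it turned for VIM (0.0061), SNAI1 (-0.0226) and ZEB1 (-0.0069), and from 3 to 54 h for VIM (0.0000), SNAI1 (-0.0031) and ZEB1 (-0.0055). It turned for EPCAM with the block (0.0019) and on the second slide (0.0054), for CDH1 on the third slide (-0.0097), and on the first slide for CDH2 (0.0143), VIM (0.0303), SNAI1 (-0.1197) and SNAI2 (-0.1127). With 1 array left out, the slope ranged from -0.0025 to 0.0003 for VIM and from -0.0010 to 0.0075 for ZEB1.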
